A study of Rattus norvegicus with 6 samples.

Results

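Oprd1 (ENSRNOG00000010531), Oprk1 (ENSRNOG00000007647) and Oprl1 (ENSRNOG00000016768) encode the delta opioid receptor, the kappa opioid receptor and the nociceptin receptor. These genes were taken by their symbols, and they are 3 of the 25629 genes counted in nuclei of the rat nucleus accumbens, a ventral part of the striatum. The mu opioid receptor gene Oprm1 (ENSRNOG00000018191), which is the main target of heroin and of the antagonist naloxone, was read beside them. No gene among the 3 overlaps another gene in the RefSeq annotation, whereas the span of Oprm1 overlaps 3 other annotated genes.

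Adult Sprague-Dawley rats, 90 to 120 days old and of both sexes, had all self-administered heroin, so that no library came from rats without the drug. They worked for 7 days with 1 response per infusion and for 4 days with 3 responses, took a progressive ratio test on day 12, and worked again with 3 responses on days 13 and 14. After the last session they received saline or naloxone and were killed 1 h later. Nuclei from frozen tissue punches of 12 rats, 6 male and 6 female, were pooled into 6 droplet-based libraries of both sexes, 3 saline (replicates 1 to 3) and 3 naloxone (replicates 4 to 6). The rats behind each library are not named, so the error given is the spread between pooled libraries.

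All 4 receptors couple to inhibitory G proteins, which lower cyclic AMP, open potassium channels and close calcium channels. Enkephalins, cut from the precursor made by Penk, act on delta and mu receptors. Dynorphins, cut from the precursor made by Pdyn, act on kappa receptors, and nociceptin, from Pnoc, acts on the nociceptin receptor. Naloxone blocks mu receptors at the lowest doses and delta and kappa receptors at higher ones, and has little affinity for the nociceptin receptor. Most neurons of the accumbens are GABAergic spiny projection neurons that express either the dopamine receptor gene Drd1, often with Pdyn, or Drd2, with Penk.

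The libraries held 55739350 to 76272798 unique molecular identifiers (UMIs, counted molecules) and gave 7598 to 13644 nuclei each, with a median of 4208 to 6450.5 UMIs per nucleus. Of 58754 nuclei, 42879 fell into 22 clusters that were named from marker genes, with the receptor genes kept out of the clustering. Another 10659 nuclei lay in 14 clusters that stayed unnamed and are called by a leading gene, and 5216 lay in 11 clusters that were set aside because over 10% of their nuclei held both Xist and Y-linked UMIs. A total of 463 barcode sequences occurred in more than 1 library. Levels are given as CPM, the UMIs of a gene for every 1000000 UMIs of a class summed over the nuclei of a library, for 25 classes and unnamed clusters with at least 20 nuclei in every library. CPM values of 1 gene can be compared between classes, but no comparison of levels between genes is made. The named classes came from this re-analysis and may differ from the classes of the study's authors.

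Over all nuclei Oprd1 stood at 18.0 ± 3.72 CPM (SD, n = 6 libraries), Oprk1 at 16.4 ± 1.98 CPM and Oprl1 at 4.53 ± 0.389 CPM. The receptors differed in where their UMIs lay. Drd2-like spiny neurons made up 8.97% of nuclei and held 52.8% of Oprd1 UMIs. Drd1-like spiny neurons made up 13.0% of nuclei and held 42.7% of Oprk1 UMIs. For Oprl1 the same Drd1-like nuclei held 13.4% of UMIs, and no class held more. Shares of nuclei take no account of depth, and these nuclei were deep. The median was 9102 UMIs in Drd1-like and 8323 in Drd2-like nuclei, against 4924 over all nuclei. By level, Oprl1 stood at 2.97 CPM in Drd1-like nuclei, below its 4.53 CPM over all nuclei.

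**Figure D1:**
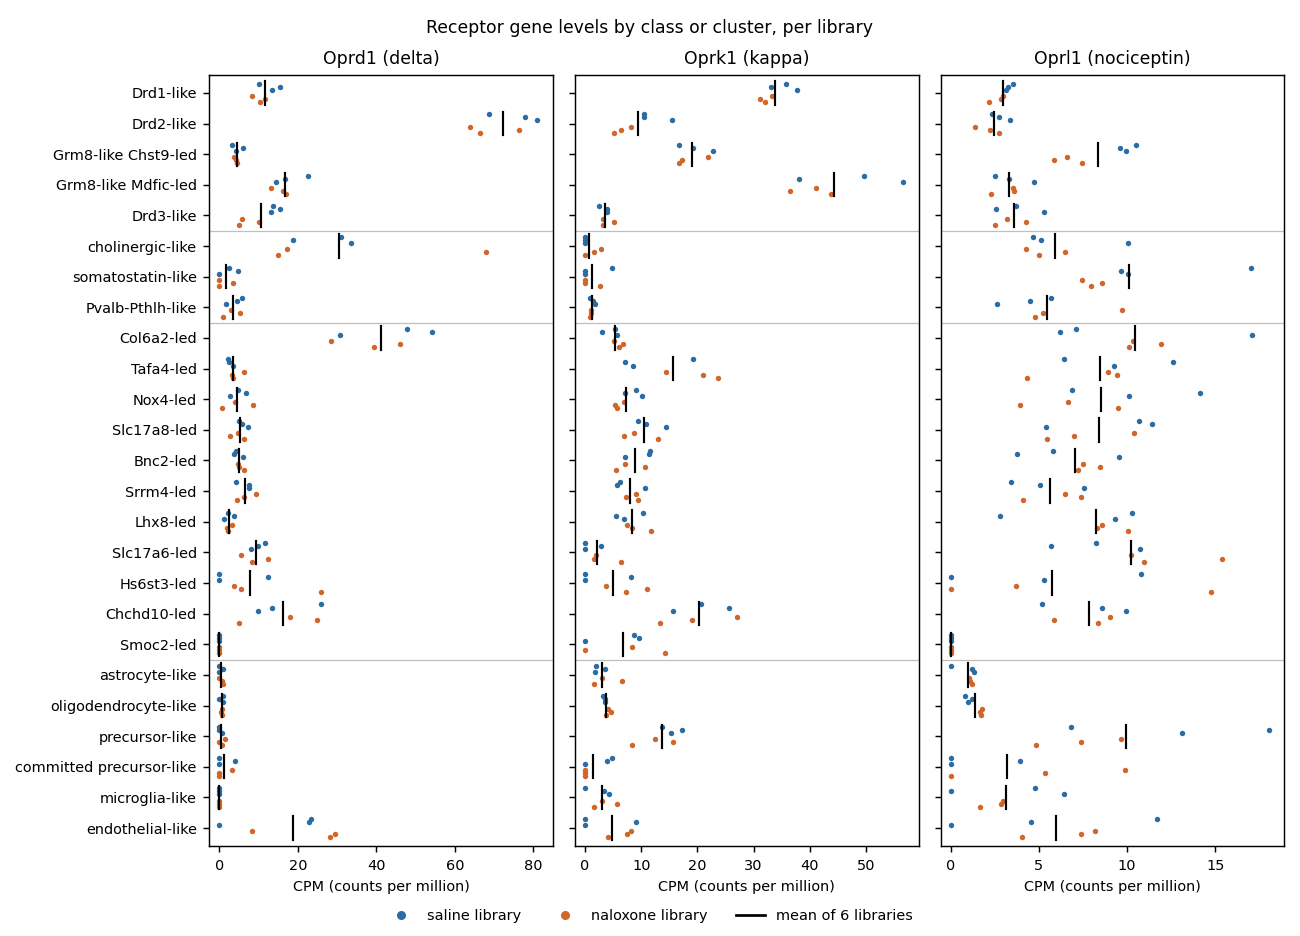
Level of Oprd1, Oprk1 and Oprl1 in CPM (horizontal axis, separate scale per gene) in each class or unnamed cluster (vertical axis), with 1 point per library coloured by group. Oprd1 stands highest in Drd2-like nuclei (63.96 to 80.99 CPM), Oprk1 in Mdfic-led and Drd1-like nuclei, and Oprl1 has no class that stands clear of the rest.

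Transcripts of the delta receptor, Oprd1, peaked in Drd2-like spiny neurons. The saline libraries gave 68.62, 77.91 and 80.99 CPM there and the naloxone libraries 63.96, 76.43 and 66.34 CPM, a mean of 72.4 ± 6.97 (n = 6). In Drd1-like spiny neurons the same libraries gave 10.11, 15.37 and 13.37 CPM, and 8.30, 11.49 and 10.30 CPM, a mean of 11.5 ± 2.53. Every Drd2-like value lay above every Drd1-like value. The level was 6.30 times as high in Drd2-like nuclei (difference 60.9 ± 4.92 CPM in the same sense in 6 of 6 libraries). A two-sided exact permutation test that flips signs over libraries gave p = 0.0312, or 0.0352 after adjustment over 9 contrasts. This p is the smallest that 6 libraries can give.

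An Oprd1 UMI was found in 40.7 ± 6.25% of Drd2-like nuclei (median depth 8323 UMIs) and in 9.22 ± 2.22% of Drd1-like nuclei (9102 UMIs). In oligodendrocyte-like nuclei, which served as a background class, the share was 0.115 ± 0.0775% at a median of 1621 UMIs. At a fixed depth of 1000 UMIs drawn from each nucleus the shares were 6.40%, 1.12% and 0.0512%, and 16.2% of the oligodendrocyte-like nuclei but no Drd1-like or Drd2-like ones were too shallow to enter. The order of the classes was the same by both counts. Intervals over libraries cover the spread between libraries, and shares of nuclei with a UMI depend on depth.

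Cholinergic-like interneurons, large neurons that release acetylcholine, came next among the named classes at 30.6 ± 19.8 CPM (284 nuclei, 117 UMIs). Their libraries ranged from 15.01 CPM in naloxone replicate 6 to 67.9 CPM in naloxone replicate 5. An unnamed cluster led by Col6a2 (463 nuclei) stood at 41.1 ± 10.1 CPM, with libraries from 28.4 to 54.1 CPM. The Mdfic-led Grm8-like neurons reached 16.7 ± 3.23 CPM, Drd3-like neurons 10.5 ± 4.35 CPM and Chst9-led Grm8-like neurons 4.35 ± 0.881 CPM. Somatostatin-like and Pvalb-Pthlh-like interneurons were low, at 1.78 ± 2.09 and 3.49 ± 1.97 CPM.

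The 5 classes counted as spiny neurons (Drd1-like, Drd2-like, Drd3-like and the 2 Grm8-like ones) together stood at 28.4 ± 4.35 CPM of Oprd1 against 10.8 ± 6.47 CPM in the 3 interneuron classes (6 of 6 libraries, p = 0.0312 by exact permutation, adjusted p = 0.0352). The Drd3-like and Chst9-led clusters met only 3 spiny neuron markers each, as did the somatostatin-like interneurons, against 7 or 8 in the other spiny neuron clusters. The named neuron classes exceeded the named glia and vascular classes 28.7-fold (27.0 ± 4.29 against 0.940 ± 0.284 CPM, 6 of 6 libraries, exact permutation p = 0.0312, adjusted p = 0.0352). Unnamed clusters, many of them with Gad1 and Gad2, entered neither side, here and in the like contrasts of the other genes. With nuclei gated singly by their markers instead of by cluster, the spiny neuron difference from interneurons no longer passed (9.06 CPM, adjusted p = 0.105, exact permutation test), and neurons exceeded glia and vascular cells 2.37-fold (23.3 against 9.84 CPM). Single gating also drew on nuclei of the unnamed and set-aside clusters, and called 8693 nuclei Chst9-led against 3680 by cluster. Astrocyte-like, oligodendrocyte-like and precursor-like nuclei stood at 0.361, 0.578 and 0.466 CPM. Microglia-like nuclei had 0 Oprd1 UMIs in 1574 nuclei of 1268 median UMIs, which allows a level of up to 1.33 CPM and a share of nuclei with a UMI of up to 0.191% at this depth (counting error only). Endothelial-like nuclei listed 18.7 ± 11.9 CPM, but this rests on 19 UMIs in 389 nuclei of 1382 median UMIs, and 1 library had none. Their cluster also met 4 spiny neuron markers and held Gad1 at 153.6 and Gad2 at 206.6 CPM. The part of neuronal RNA in its Oprd1 level was not tested.

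Oprk1, the kappa receptor gene, was highest in the Mdfic-led Grm8-like neurons, a group of spiny neurons that express the glutamate receptor gene Grm8. The saline libraries gave 49.63, 38.15 and 56.58 CPM and the naloxone libraries 41.20, 36.41 and 43.74 CPM, a mean of 44.3 ± 7.61. Drd1-like spiny neurons followed at 33.8 ± 2.46 CPM, with saline libraries at 35.74, 33.19 and 37.71 CPM and naloxone libraries at 33.21, 31.13 and 31.98 CPM. The Drd1-like values lay close together and below the Mdfic-led value of the same library in all 6.

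In Drd2-like spiny neurons Oprk1 stood at 9.38 ± 3.696 CPM, 0.277 times the Drd1-like level (difference -24.5 ± 1.75 CPM, lower in 6 of 6 libraries, exact permutation p = 0.0312, adjusted p = 0.0352). Delta and kappa receptor genes were thus ordered in opposite ways across these 2 classes. The spiny neuron classes together held 24.4 ± 2.86 CPM of Oprk1 against 1.08 ± 0.276 CPM in the interneuron classes, a 22.6-fold difference in 6 of 6 libraries (same exact p and adjusted p). With nuclei gated singly it was 5.55-fold (20.7 against 3.73 CPM). Cholinergic-like nuclei, which were second among named classes for Oprd1, had 3 Oprk1 UMIs in 284 nuclei.

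Oprk1 was also present outside neurons. Oligodendrocyte precursor-like nuclei, the cells that renew myelinating glia, held 13.7 ± 3.16 CPM (102 UMIs in 94 of 2209 nuclei). Their saline libraries gave 13.69, 17.23 and 15.27 CPM and their naloxone libraries 12.40, 15.64 and 8.27 CPM. Oligodendrocyte-like nuclei held 3.79 ± 0.448 CPM and committed precursor-like nuclei 1.44 ± 2.25 CPM, so that precursor-like nuclei lay higher than both in 6 of 6 libraries. The named neuron classes together lay 4.36-fold above the glia and vascular classes (22.5 ± 2.74 against 5.17 ± 1.34 CPM, 6 of 6 libraries, exact permutation p = 0.0312, adjusted p = 0.0352). With nuclei gated singly the difference was 1.79-fold (19.6 against 10.9 CPM). An Oprk1 UMI was found in 25.9 ± 5.42% of Drd1-like nuclei, in 4.26 ± 0.634% of precursor-like nuclei (3138 median UMIs) and in 0.678 ± 0.133% of oligodendrocyte-like nuclei.

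Oprl1, the nociceptin receptor gene, was low and widespread. It stood at 10.5 ± 3.89 CPM in the Col6a2-led cluster, 10.2 ± 3.23 in a cluster led by the glutamate transporter gene Slc17a6, 10.1 ± 3.51 in somatostatin-like interneurons and 9.96 ± 4.85 in oligodendrocyte precursor-like nuclei. In somatostatin-like nuclei, which express the peptide somatostatin, saline replicate 1 was high at 17.0 CPM and the other libraries lay between 7.44 and 10.1 CPM. In precursor-like nuclei the saline libraries gave 6.84, 18.01 and 13.09 CPM and the naloxone libraries 9.64, 7.36 and 4.82 CPM. The spread within each of these classes was as wide as the gaps between them.

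Unlike Oprd1 and Oprk1, Oprl1 was lower in spiny neurons than in interneurons (3.605 ± 0.515 against 6.61 ± 0.790 CPM, lower in 6 of 6 libraries, exact permutation p = 0.0312, adjusted p = 0.0352). Drd2-like and Drd1-like spiny neurons had 2.45 ± 0.668 and 2.97 ± 0.469 CPM, and the difference of -0.519 ± 0.818 CPM was within the spread between libraries (lower in 4 of 6, exact permutation p = 0.21875, adjusted p = 0.219). Among spiny neurons the Chst9-led Grm8-like cluster was highest, at 8.32 ± 1.95 CPM. The named neuron classes stood 1.35-fold above the glia and vascular classes (3.84 ± 0.473 against 2.84 ± 0.780 CPM, 6 of 6 libraries, exact permutation p = 0.0312, adjusted p = 0.0352). With nuclei of at least 1000 genes the last difference was 0.849 CPM and no longer passed (adjusted p = 0.141, exact permutation test). Astrocyte-like nuclei held 0.982 ± 0.494 CPM and oligodendrocyte-like nuclei 1.36 ± 0.407 CPM.

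Neighbours in the order of levels were compared for all 3 genes over the 13 steps between the 14 named classes with enough nuclei. Of these 39 pairs, 6 reached the smallest exact p of 0.0312 and none passed after adjustment (smallest adjusted p = 0.203). As 6 libraries can give no smaller p, a pair could pass only if most of the 39 lay there. The order was also taken from the same libraries, so the adjusted test cannot tell which steps hold. For Oprd1 the 6-of-6 steps were Drd2-like above cholinergic-like, Mdfic-led above Drd1-like, and Drd3-like above Chst9-led. For Oprk1 they were the steps from Mdfic-led to Drd1-like, Chst9-led and precursor-like nuclei. No neighbouring pair for Oprl1 showed such a step. At every other step the upper class was the higher in at most 5 of 6 libraries.

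Single classes were not uniform, and their clusters are described here without a test, since the pairs were picked after their values were seen. The Drd1-like class consisted of a Slc24a4-led cluster (4867 nuclei) and a Prkch-led cluster (2794 nuclei). Oprd1 stood at 16.7 ± 3.37 CPM in the former and 1.27 ± 0.527 CPM in the latter, a 13.2-fold difference with libraries from 12.5 to 22.4 against 0.515 to 1.80 CPM. Oprk1 lay the other way and closer, at 31.7 ± 3.09 against 37.7 ± 3.56 CPM, lower in the Slc24a4-led cluster in 6 of 6 libraries. Oprm1 likewise stood at 34.1 ± 3.41 against 58.5 ± 7.17 CPM.

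The Drd2-like class held a large cluster, here Drd2-led (1) with 4833 nuclei, and a small one, Drd2-led (29) with 438 nuclei. Oprd1 was 77.6 ± 7.37 CPM in the large cluster and 12.3 ± 6.59 CPM in the small one, without overlap between libraries. Oprk1 was 8.48 ± 2.95 CPM in the large cluster and 19.1 ± 12.1 CPM in the small one, higher in the small one in 6 of 6 libraries. In both spiny neuron classes the cluster with less Oprd1 thus held more Oprk1.

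The Grm8-like class also divided. Its Mdfic-led cluster (1524 nuclei) exceeded its Chst9-led cluster (3680 nuclei) for Oprd1 (16.7 against 4.35 CPM) and Oprk1 (44.3 against 19.1 CPM). The Chst9-led cluster was higher for Oprl1 (8.32 against 3.32 CPM) and for Oprm1 (277 ± 11.3 against 77.2 ± 12.1 CPM). Each of these 4 orders held in 6 of 6 libraries.

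**Figure D2:**
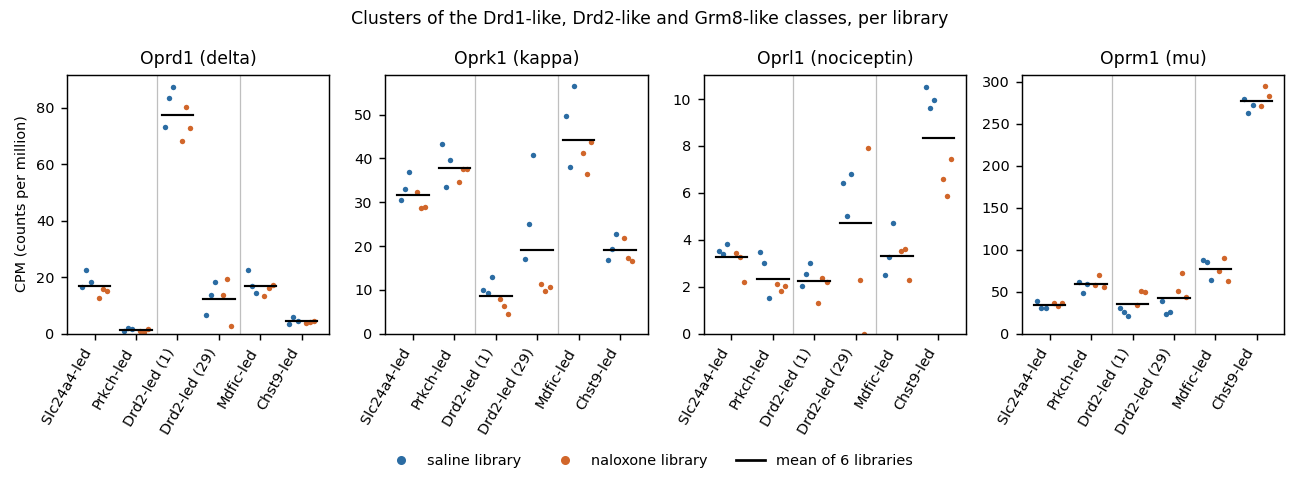
Level in CPM (vertical axis) of each receptor gene in the 2 clusters of the Drd1-like, Drd2-like and Grm8-like classes (horizontal axis), with 1 point per library. Oprd1 separates the clusters of each class, with 16.7 against 1.27 CPM in the Drd1-like class and 77.6 against 12.3 CPM in the Drd2-like class.

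Genes with the most similar pattern were ranked by Pearson's r of log2(CPM + 1) over the 25 class and cluster means, among 14726 genes. These values are a description of class means that share libraries. For Oprd1 the nearest were Wipf3 (r = 0.84), Stk32c (0.84), Gucy1a1 (0.84), Gucy1b1 (0.83) and Gnal (0.82). Gucy1a1 and Gucy1b1 encode the subunits of the nitric oxide receptor guanylyl cyclase, and Gnal encodes the stimulatory G protein of striatal neurons. For Oprk1 they were Enc1 (0.74), Adamts3 (0.72), Sulf1 (0.71), ENSRNOG00000066918 (0.71) and Adamts19 (0.71). For Oprl1 they were Lurap1l (0.90), Chd5 (0.87), Ina (0.86), Cryga (0.85) and Nalf1 (0.85). The receptors were less alike among themselves, with r = 0.19 between Oprd1 and Oprk1, 0.33 between Oprd1 and Oprl1, and 0.05 between Oprk1 and Oprl1.

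The peptide precursor genes showed patterns of their own. Pdyn stood at 23.2 ± 2.66 CPM in Drd1-like nuclei, and Pnoc was highest in somatostatin-like nuclei, at 29.2 ± 9.04 CPM, the class in which Oprl1 was also among its highest. Penk stood at 126.5 ± 24.7 CPM in Drd2-like nuclei but also at 161.4 ± 52.1 CPM in microglia-like and 113.5 ± 34.4 CPM in oligodendrocyte-like nuclei. RNA from outside a nucleus was not removed from the counts, and its part in these levels was not tested.

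Co-detection with Oprm1 asked whether a nucleus with a receptor UMI held an Oprm1 UMI more or less often than other nuclei of like depth. Over all nuclei, 40265 had a UMI of none of the 4 receptor genes, 14803 of 1 gene, 3320 of 2, 352 of 3 and 14 of all 4. Of the nuclei with a UMI of Oprd1, Oprk1 or Oprl1, 3040 also had an Oprm1 UMI and 6825 did not, a share of 30.8%. This share was 72.3% in cholinergic-like, 70.4% in Chst9-led, 33.3% in Mdfic-led, 26.6% in Drd1-like and 20.7% in Drd2-like nuclei. The cholinergic-like and Chst9-led classes were also those with the highest Oprm1 levels, 178.7 ± 25.7 and 277 ± 11.3 CPM. Nuclei without an Oprk1 UMI held an Oprm1 UMI about as often. Their mean share over libraries was 70.1% in Chst9-led, 33.0% in Mdfic-led, 25.7% in Drd1-like and 21.6% in Drd2-like nuclei. A nucleus without a UMI may still hold the transcript, so these are counts of detection.

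Within a class the test compared nuclei over 5 strata of depth in each library, for 8 pairs of gene and class with enough nuclei. The smallest p of the 8 was that of Oprd1 in Drd1-like nuclei, where 135 nuclei held both UMIs against 188 expected at like depth (odds ratio 0.629). The log2 odds ratio was below 0 in each of the 6 libraries, from -1.41 to -0.01, with an exact permutation p of 0.0312. It did not pass after adjustment over the 8 pairs (adjusted p = 0.25). Since 6 libraries can give no smaller p, a pair could pass only if most of the 8 lay there. In saline replicates 1, 2 and 3 the co-detected nuclei were 24, 22 and 34 against 27.9, 37.9 and 39.2 expected. In naloxone replicates 4, 5 and 6 they were 16, 19 and 20 against 16.1, 29.5 and 37.1 expected. All 6 counts lay below expectation, naloxone replicate 4 only just.

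Oprd1 and Oprm1 are unevenly spread over the 2 Drd1-like clusters, so the strata were also formed within each cluster, a choice made after the data were seen. Then 178 co-detected nuclei were expected (odds ratio 0.663, adjusted p = 0.156, exact permutation test). Within the Slc24a4-led cluster alone, 126 were seen against 169 expected, fewer in 6 of 6 libraries.

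The other 7 pairs did not pass either. In Drd2-like nuclei Oprd1 was seen with Oprm1 in 428 nuclei against 464 expected (below in 5 of 6 libraries, exact permutation p = 0.125, adjusted p = 0.292). Oprk1 met its expectation closely in Drd1-like (538 against 515), Drd2-like (80 against 82.1), Chst9-led (268 against 279) and Mdfic-led nuclei (154 against 148). In the Prkch-led cluster of the Drd1-like class, 250 nuclei held Oprk1 and Oprm1 against 221 expected, above in 6 of 6 libraries, while the Slc24a4-led cluster gave 288 against 298. These cluster values were read without a test. Oprl1 was seen with Oprm1 in 76 Drd1-like nuclei against 60.02 expected (above in 5 of 6 libraries, exact permutation p = 0.094, adjusted p = 0.292). In Chst9-led nuclei 147 were seen against 137 expected, above in 4 of 6 libraries, and the log2 odds ratio reached 3.01 in naloxone replicate 4.

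**Figure D3:**
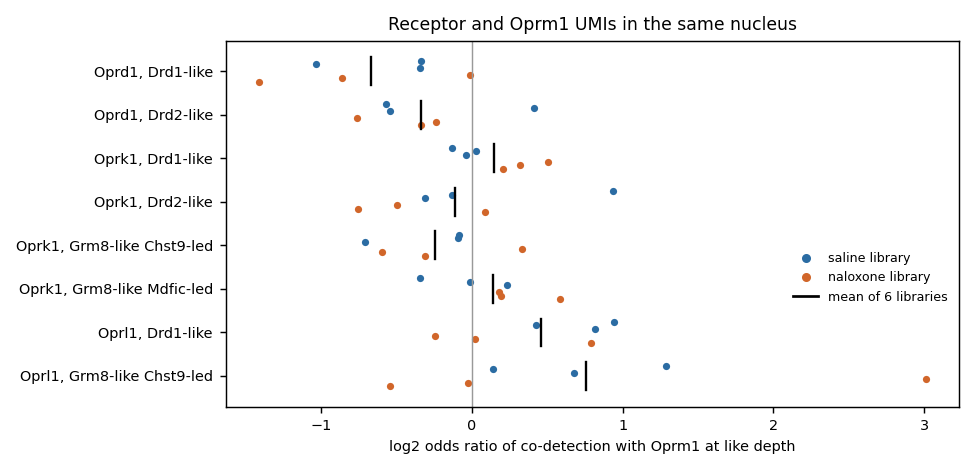
Log2 odds ratio (horizontal axis) of finding a receptor UMI and an Oprm1 UMI in 1 nucleus at like depth, for the 8 pairs of gene and class (vertical axis), with 1 point per library and the mean as a line. Oprd1 in Drd1-like nuclei lies below 0 in every library, and the other pairs spread across 0 in at least 1 library.

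Among themselves, Oprd1 and Oprk1 were detected together in 211 Drd1-like nuclei against 203 expected and in 182 Drd2-like nuclei against 183 expected. In Mdfic-led nuclei they met in 71 against 57.4 expected, above in 5 of 6 libraries. Co-detection with Oprm1 was also compared between naloxone and saline libraries for the 8 pairs (smallest adjusted p = 0.8, exact permutation test). An exact permutation p of 3 against 3 libraries is no less than 0.1, so no pair could pass. The test therefore cannot decide whether naloxone changed co-detection. For Oprk1 in Drd1-like nuclei the mean log2 odds ratio was -0.05 in saline and 0.34 in naloxone libraries without overlap (exact permutation p = 0.1, the smallest that 3 against 3 can give).

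Naloxone was compared with saline by edgeR's quasi-likelihood test on UMIs summed per library and class, with Benjamini-Hochberg adjustment over all genes of a class. Of 75 combinations of the 3 genes with the 25 classes and clusters, 34 had enough counts to be tested and none passed an adjusted p of 0.05. Over all genes and classes 0.192% of 217067 tests passed. At an unadjusted p under 0.05 there were 6 of the 34, and 8.35% of all tests lay there. The fitted change was below 0 in 24 and above 0 in 10, with a median log2 change of -0.21. By gene, 8 of 11 tested classes lay below 0 for Oprd1, 9 of 13 for Oprk1 and 7 of 10 for Oprl1, whereas 16 of 20 lay above 0 for Oprm1. The classes come from the same 6 libraries, so these counts of signs are not independent. The share of all tests below 0 is not given here.

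**Figure D4:**
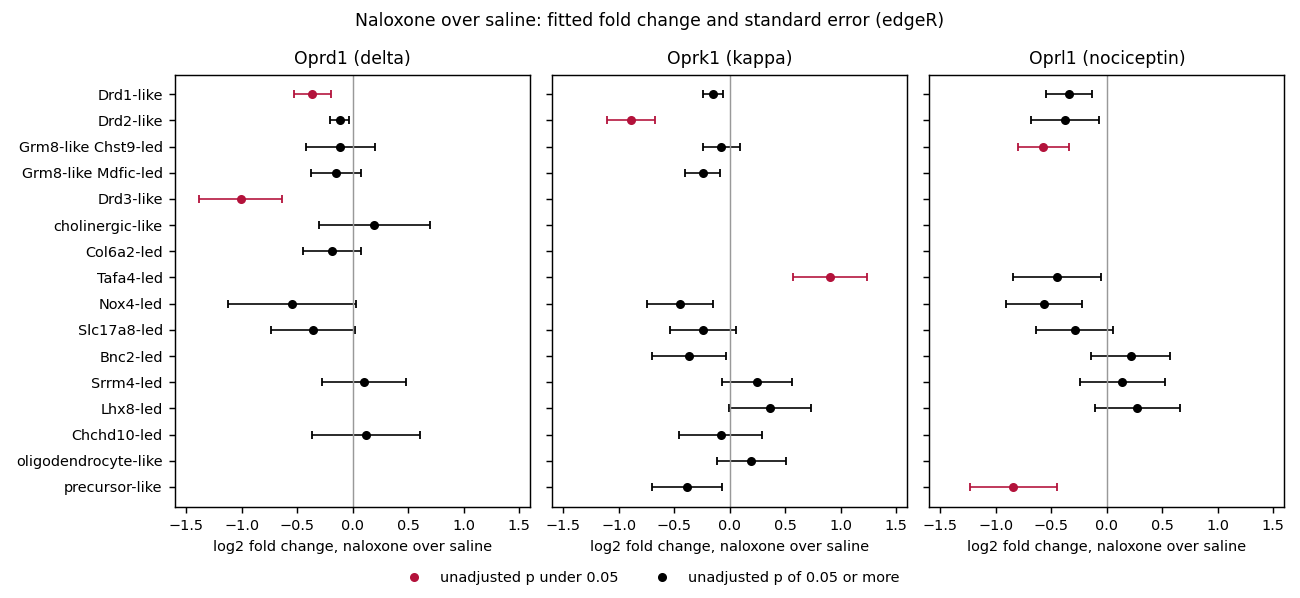
Fitted log2 fold change of naloxone over saline (horizontal axis, bars are the standard error) for Oprd1, Oprk1 and Oprl1 in every class or cluster with enough counts (vertical axis). Of the 34 values 24 lie below 0 and none passed after adjustment, and the 6 in red have an unadjusted p under 0.05. The values share the same 6 libraries and are not independent.

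Oprk1 in Drd2-like spiny neurons had the smallest p of the 34. The saline libraries gave 10.42, 10.50 and 15.53 CPM from 72, 103 and 148 UMIs. The naloxone libraries gave 8.23, 6.48 and 5.08 CPM from 48, 53 and 41 UMIs. Each naloxone value lay below each saline value, and saline replicate 3 stood apart at the top. Here and below, a lack of overlap between 3 and 3 libraries has an exact permutation p of no less than 0.1. The share of all genes without overlap is not given here. The means were 12.2 ± 2.92 and 6.60 ± 1.58 CPM (n = 3 each), a log2 change of -0.89 ± 0.21 (SE) that missed the threshold in edgeR's test (adjusted p = 0.0807). In this class 0.685% of 12563 genes passed.

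DESeq2 gave a log2 change of -0.89 with an adjusted p of 0.0387 and called 0.817% of genes. The edgeR fit without a filter on low counts gave -0.90 with an adjusted p of 0.000279 and called 2.48% of genes. With each library left out in turn, the change stayed between -1.06 and -0.67 (adjusted p 0.0580 to 0.324).

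The same sign was found in both Drd2-like clusters. In Drd2-led (1) the saline libraries gave 9.94, 9.21 and 12.95 CPM and the naloxone libraries 7.97, 6.26 and 4.52 CPM (log2 change -0.79, edgeR adjusted p = 0.129, 0.436% of genes called). In Drd2-led (29) they gave 17.07, 25.07 and 40.77 CPM against 11.40, 9.73 and 10.55 CPM (log2 change -1.40, edgeR adjusted p = 0.0533, 3.21% of genes called). The groups did not overlap in either cluster, with the same limit. Of the fits of Drd2-led (29) with 1 library left out that gave a value, 1 passed and 3 did not. The one that passed was without saline replicate 1, at -1.59 (edgeR adjusted p = 0.0354). These fits ranged from -1.59 to -1.34, with an adjusted p of up to 0.156. The small cluster made up 8.44% of Drd2-like nuclei in saline and 8.47% in naloxone libraries.

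An Oprk1 UMI was found in 9.21 ± 3.19% of saline and 5.49 ± 0.598% of naloxone Drd2-like nuclei. After thinning to 1000 UMIs the shares were 1.21% (libraries 0.863 to 1.59%) and 0.497% (0.389 to 0.584%). The median UMIs per Drd2-like nucleus were 6876 to 11352 in saline and 7737 to 13723 in naloxone libraries, which overlap.

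Markers of this class and of others were read beside Oprk1 in Drd2-like nuclei, beginning with the Drd1 class, where Oprk1 is higher. Of the 6 markers 5 had a row, and their summed level was 6.92 to 13.7 CPM in saline and 7.32 to 9.26 CPM in naloxone libraries. Drd1 itself stood at 4.43 ± 0.665 and 2.95 ± 0.429 CPM without overlap, lower in naloxone, Isl1 at 1.32 and 1.57 CPM, Ebf1 at 2.29 and 1.66 CPM, Slc35d3 at 1.63 and 1.32 CPM and Eya1 at 0.291 and 0.547 CPM. None was at 0. Of the 5 markers of the Drd2-like class itself, 4 had the higher mean in saline libraries. Adora2a (85.5 to 92.4 CPM in saline, 71.7 to 79.98 CPM in naloxone) and Gpr52 (24.98 to 29.97 CPM, and 16.3 to 22.8 CPM) did not overlap between groups, and the summed level of the list was 689 to 724 and 696 to 719 CPM. All 7 oligodendrocyte markers had the higher mean in naloxone libraries, with a summed level of 117.8 to 185 CPM in saline and 127 to 209 CPM in naloxone libraries. For the 7 astrocyte markers the sums were 39.5 to 66.9 and 45.0 to 62.0 CPM. The part of any of these in the Oprk1 level was not tested. Drd2-like nuclei made up 9.84 ± 0.555% of saline and 7.94 ± 1.65% of naloxone nuclei.

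In Drd1-like spiny neurons Oprk1 stood at 35.5 ± 2.27 CPM in saline and 32.1 ± 1.04 CPM in naloxone libraries (log2 change -0.15 ± 0.09, edgeR adjusted p = 0.494, with 0.229% of genes called). The difference between the naloxone effects in the Drd2-like and Drd1-like classes was tested as an interaction with the library as a block, a test chosen after the data were seen. For Oprk1 it was -0.75 ± 0.17 (SE, log2 scale), with an edgeR adjusted p of 0.0157, where 1.72% of 13571 genes passed. It no longer passed without saline replicate 3 (-0.58, adjusted p = 0.175), naloxone replicate 5 (-0.79, adjusted p = 0.0525) or naloxone replicate 6 (-0.59, adjusted p = 0.158). It also did not pass with nuclei gated singly by their markers (-0.96, adjusted p = 0.728). That gate held 705 Drd1-like and 1624 Drd2-like nuclei, against 7661 and 5271 by cluster, so the 2 results differ in their nuclei.

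Oprm1 was higher in the naloxone libraries of the same nuclei, and of the 4 receptor genes it alone was called in a class by edgeR's test. In Drd2-like nuclei the saline libraries gave 31.42, 25.09 and 21.61 CPM and the naloxone libraries 35.15, 51.85 and 48.98 CPM (log2 change 0.84 ± 0.16, edgeR adjusted p = 0.0322). In Drd1-like nuclei they gave 47.77, 36.39 and 38.83 CPM, and 43.80, 43.42 and 42.86 CPM (log2 change 0.08, edgeR adjusted p = 0.778). The Drd2-like call did not hold without saline replicate 2 (edgeR adjusted p = 0.184), saline replicate 3 (0.158), naloxone replicate 5 (0.0809) or naloxone replicate 6 (0.0761). The interaction for Oprm1 was 0.78 ± 0.12 (edgeR adjusted p = 0.000176) and passed with any 1 library left out (0.67 to 0.92). With nuclei gated singly it was 0.38 and did not pass (adjusted p = 0.968). The saline level of Oprk1 in Drd2-like nuclei was 34.2% of that in Drd1-like nuclei and the naloxone level 20.6%, while for Oprm1 the values were 63.5% and 105%.

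**Figure D5:**
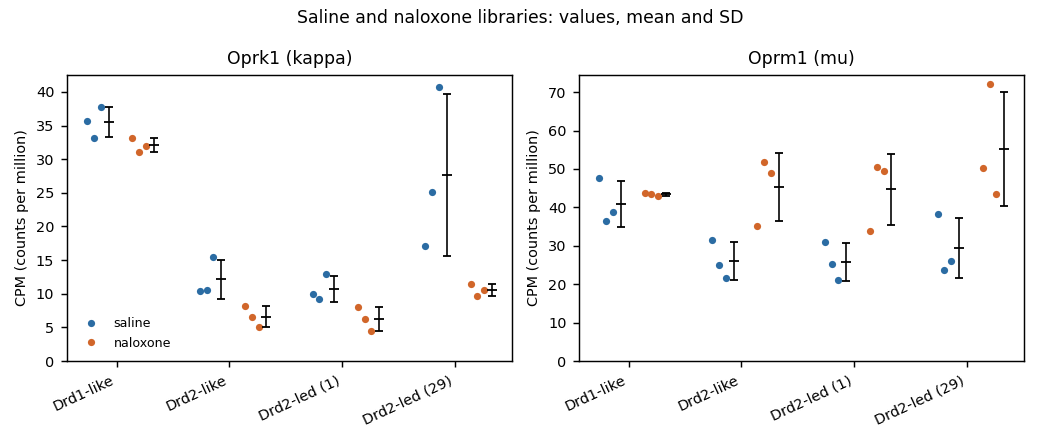
Level in CPM (vertical axis) of Oprk1 and Oprm1 in Drd1-like and Drd2-like nuclei and the 2 Drd2-like clusters (horizontal axis), with 1 point per library and the mean ± SD of each group. Oprk1 in Drd2-like nuclei lies at 10.42 to 15.53 CPM in saline and 5.08 to 8.23 CPM in naloxone libraries, and Oprm1 there lies higher in naloxone libraries.

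Oprd1 in Drd2-like nuclei, where it is highest, showed no difference that passed (75.8 ± 6.44 against 68.9 ± 6.62 CPM, log2 change -0.12 ± 0.09, edgeR adjusted p = 0.592). Its interaction between the 2 classes was 0.26 ± 0.12 (edgeR adjusted p = 0.455). In Drd1-like nuclei Oprd1 gave 12.9 ± 2.66 against 10.0 ± 1.61 CPM (log2 change -0.37, edgeR adjusted p = 0.370). In Drd3-like nuclei the saline libraries gave 13.61, 15.34 and 13.25 CPM and the naloxone libraries 5.63, 10.20 and 4.999 CPM (log2 change -1.01 ± 0.38, edgeR adjusted p = 0.527, with 0.0112% of genes called). Over all nuclei, where 0.0289% of 17328 genes passed, the values were 18.75, 22.09 and 19.91 CPM against 12.58, 20.40 and 14.39 CPM (log2 change -0.37 ± 0.16, edgeR adjusted p = 0.347). Without naloxone replicate 5 the last change was -0.59 with an adjusted p of 0.0381. The other 5 fits with 1 library left out did not pass. The change came as near 0 as -0.23, and the adjusted p reached 0.611. A lower share of Drd2-like nuclei and less Oprd1 per nucleus cannot be told apart in the sum over all nuclei.

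Among the other classes, Oprk1 in the Tafa4-led cluster gave 19.20, 7.09 and 8.53 CPM in saline and 14.44, 20.93 and 23.75 CPM in naloxone libraries (log2 change 0.90 ± 0.33, edgeR adjusted p = 0.636, with 0.0541% of genes called). Over all nuclei Oprk1 stood at 17.9 ± 1.23 against 14.9 ± 1.11 CPM (log2 change -0.28 ± 0.09, edgeR adjusted p = 0.254).

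Oprl1 did not pass in any class. In Chst9-led nuclei the saline libraries gave 10.52, 9.61 and 9.95 CPM and the naloxone libraries 6.58, 5.85 and 7.43 CPM without overlap (log2 change -0.57 ± 0.23, edgeR adjusted p = 0.434, with 0.139% of genes called). In oligodendrocyte precursor-like nuclei the change was -0.84 ± 0.39 (edgeR adjusted p = 0.604, with 0.309% of genes called), and the libraries overlapped. In Drd1-like and Drd2-like nuclei Oprl1 stood at 3.30 and 2.81 CPM in saline and 2.64 and 2.10 CPM in naloxone libraries, and the interaction was -0.02 ± 0.35 (edgeR adjusted p = 0.993). In Drd2-like nuclei the Oprl1 values rested on 123 UMIs over all libraries.

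The wider opioid signalling list held 39 genes with a row, including peptide precursors, G-protein subunits, effectors, receptor kinases, arrestins, RGS proteins and peptidases. In Drd2-like nuclei 1 of 33 tested genes was called and higher (Oprm1) and none lower, where 60 of all 12563 genes were higher and 26 lower (0.685% together), with a median log2 change of -0.03 against 0.00 over all genes of the class. In its cluster Drd2-led (1), 1 of 32 was called, Oprm1 again (log2 change 0.83, edgeR adjusted p = 0.0368, 0.436% of all genes called). In Drd2-led (29), where 3.21% of all genes were called, 2 of 21 were called and higher, Oprm1 and Gnb1, which encodes a G-protein beta subunit (111.9 ± 19.4 to 177.2 ± 8.44 CPM, log2 change 0.68 ± 0.16, edgeR adjusted p = 0.0170). None of the list was called in the 24 classes and unnamed clusters other than the Drd2-like class, where up to 5 genes per class lay at an unadjusted p under 0.05. No gene for the precursors of their peptides, Penk, Pdyn, Pnoc or Pomc, was called in any class.

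Male and female nuclei of the same libraries were compared for 15 combinations of the 3 genes with 17 classes and clusters, with the library as a block in edgeR. None passed, where 0.115% of 142319 tests over all genes did. The fitted difference of female over male ran from -0.53 to 0.27 on the log2 scale, and 1 was at an unadjusted p under 0.05, Oprl1 in Drd1-like nuclei (2.53 ± 0.837 CPM in female and 3.63 ± 0.531 CPM in male nuclei, adjusted p = 0.919).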

How the data were processed

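The deposited values are UMI counts per gene and barcode with no normalization, made with Cell Ranger 9.0.1 on the build mRatBN7.2 per the submitters' processing notes, which also name Seurat 5.2.1 and R 4.4.0. The annotation release and the counting of introns are not given in the sources used here, and the RefSeq tables follow another build, so no coordinates are given. The authors' own choice of nuclei was not used (44592 stated in the labels, against 64260 deposited barcodes).

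A filter of 500 genes or more and mitochondrial UMIs of 5% or less left 61609 nuclei. Doublets were called in each library by simulated doublets, at 0.4% expected per 1000 nuclei, and 2855 (4.63%) were removed. Counts were clustered without the receptor genes (3000 variable genes, 40 principal components, 15 neighbours, Leiden resolution 1, leidenalg 0.10.2). A cluster was named from at least 3 fixed markers at 20 CPM and 2 times the median cluster. Of these markers 6 had no row and were not analysed here. Over 10% of nuclei with both Xist and Y-linked UMIs set a cluster aside.

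Classes were compared within libraries by exact sign-flip permutation tests (two-sided, coded with numpy 2.4.6), and co-detection by Mantel-Haenszel odds ratios over 5 depth strata. Naloxone and sex effects used edgeR 4.0.16 with TMM on sums per library (R 4.3.3), and DESeq2 1.42.0 was an alternative. On simulated data, edgeR recovered 83.5% of 200 genes changed 2-fold (1 on the log2 scale) among 12596 genes in Drd2-like nuclei and 82.5% among 13542 in Drd1-like nuclei. Recovery was lower in other classes, such as 69.5% in Drd3-like and 2.5% in endothelial-like nuclei. The changed genes were drawn from all genes that passed the filter, so recovery at the counts of the 3 receptor genes was not measured. The p-values are taken over pooled libraries, whose spread need not be that between rats.

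Named are the 3 members, Oprm1, 4 peptide precursors, called genes of the signalling list (40 listed, 39 with a row) and the 5 genes most like each member with a highest class mean of at least 5 CPM. The members, lists and tests were chosen with earlier results of these data known. Alternatives were other size factors, no count filter, DESeq2, stricter nuclei, doublets kept, single-nucleus gating, equal weight per nucleus, 10 or finer strata, thinning to 1000 UMIs and each library left out.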

Additional observations from a re-analysis of the deposited data

Results flagged for a closer look

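The naloxone effects on 2 receptor genes differed between the Drd2-like and Drd1-like classes in a test of the difference itself, which was chosen after the data were seen. For Oprk1 the log2 change in Drd2-like nuclei minus that in Drd1-like nuclei was -0.75 ± 0.17 (SE, edgeR adjusted p = 0.0157), and Oprk1 passed in neither class on its own. For Oprm1 it was 0.78 ± 0.12 (edgeR adjusted p = 0.000176), opposite in sign. Of 13571 genes tested, 234 (1.72%) passed. The Oprk1 difference no longer passed without saline replicate 3 (edgeR adjusted p = 0.175), naloxone replicate 5 (0.0525) or naloxone replicate 6 (0.158). With nuclei gated singly neither gene passed (edgeR adjusted p = 0.728 for Oprk1 and 0.968 for Oprm1).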

How the results depend on the processing

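No paired analysis was possible because the saline and naloxone libraries share no replicate numbers. No filter on low counts and DESeq2 each raised the number of called combinations of the 3 genes from 0 to 1, Oprk1 in Drd2-like nuclei (-0.90 and -0.89). Gating nuclei singly left the interaction at -0.96 for Oprk1 and 0.38 for Oprm1 without passing, took Oprd1 in spiny neurons over interneurons to 9.06 CPM (adjusted p = 0.105, exact permutation test), lowered the fold of neurons over glia to 2.37 for Oprd1 and 1.79 for Oprk1 and that of Oprk1 in spiny neurons over interneurons to 5.55, and turned the sign of Oprl1 in Drd2-like minus Drd1-like nuclei (0.17 CPM) and of Oprk1 co-detection with Oprm1 in Drd1-like (-0.0168) and Drd2-like nuclei (0.0522). Nuclei of at least 1000 genes left Oprl1 in neurons over glia at 0.849 CPM. With each library left out, the Oprk1 interaction ranged from -0.87 to -0.58. The Oprl1 interaction ranged from -0.40 and turned to 0.15, 0.23 and 0.03 without saline replicate 3, naloxone replicate 4 and naloxone replicate 5. Oprk1 co-detection in Drd2-like nuclei ranged from -0.32 to 0.0159, above 0 without naloxone replicate 5. Oprd1 in precursor-like minus oligodendrocyte-like nuclei ranged from -0.278 to 0.0278 CPM and turned positive without saline replicate 1. The level contrasts ranged, for Oprd1, over 59.5 to 61.9 (Drd2-like minus Drd1-like), 15.98 to 19.8 (spiny neurons minus interneurons) and 25.1 to 27.1 CPM (neurons minus glia), for Oprk1 over -24.9 to -23.96, 22.3 to 23.8 and 16.4 to 18.3 CPM, and for Oprl1 over -3.20 to -2.74 and 0.715 to 1.18 CPM in the latter 2. With 5 libraries the exact test cannot go below 0.0625, and these adjusted p were 0.0703. The cause of these shifts was not tested. Single gating held 705 Drd1-like and 1624 Drd2-like nuclei, against 7661 and 5271 by cluster. Alternatives that left out no library kept direction and side of the threshold in 91 further cases. Thinning gave no value for 7 of the 8 co-detection pairs, and gating none for Oprd1 and Oprl1 in Drd1-like nuclei. Sparse counts limit the values in many classes, such as 123 Oprl1 UMIs in Drd2-like and 4 Oprd1 UMIs in precursor-like nuclei.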
